A study of Mus musculus with 3 samples.

Results

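Astrocytes are the glial cells that enclose synapses and blood vessels, and this account follows 38 genes that are widely used as astrocyte markers or that serve astrocyte functions other than transport and gap junctions. The genes were found by symbol in the deposited table, where each had 1 row with a value, and they are 38 of 33101 gene names with a value. RNA came from micro-dissected dentate gyri, a subregion of the hippocampus packed with granule neurons, of male mice of the C57Black6 strain (C57BL/6 background) aged 8 to 10 weeks. There was 1 group of 3 wild-type libraries, with no second genotype, treatment or time, and whether each library came from 1 animal is not stated in the labels. The granule cell genes C1ql2 and C1ql3, checked as markers of the tissue, were at 111 and 102 FPKM. The table held 1 value per gene for the whole group, in FPKM, that is, fragments relative to the length of the transcript and to all fragments mapped. No value therefore has a replicate error, no difference could be tested, and the depth behind each value is unknown. All comparisons below are between genes within this 1 set of values.

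Astrocytes take up potassium and glutamate, turn glutamate into glutamine, store glycogen, and cover capillaries with endfeet rich in water channels. They also secrete proteins that act on synapses, lipids and the extracellular matrix. In the dentate gyrus the radial stem cells that give rise to new granule neurons share many of these genes, among them Gfap, Vim, Fabp7 and Hopx, so a value need not come from astrocytes alone.

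The members were abundant. Their median was 82.7 FPKM, against 0.0869 FPKM over all gene names and 2.46 FPKM over protein-coding names. All 38 stood at 1 FPKM or more, a level reached by 39.6% of all gene names and 56.4% of protein-coding names. At 10 FPKM or more there were 36 members, against 21.1% of all names and 30.8% of protein-coding names. At 100 FPKM or more there were 15 members, against 2.08% and 2.63%. Together the members held 1.35% of the summed FPKM of the table. Being known markers, they had been collected as genes that astrocytes transcribe strongly, so the high counts describe the collection and were not tested against chance.

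Levels within the list spanned 161-fold, from the cystatin gene Cst3 at 944 FPKM to the hyaluronan-binding protein gene Itih3 at 5.88 FPKM. The middle part of the list, from the lower to the upper quartile, ran from 24.6 to 214 FPKM. Among protein-coding names 7 members were in the highest 100 and 20 in the highest 1000. The 10 highest members carried 71.7% of the list's summed FPKM. Genes of secreted or metal-binding proteins made up 6 of the 7 highest members, the exception being Glul, the gene of glutamine synthetase.

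**Figure D1:**
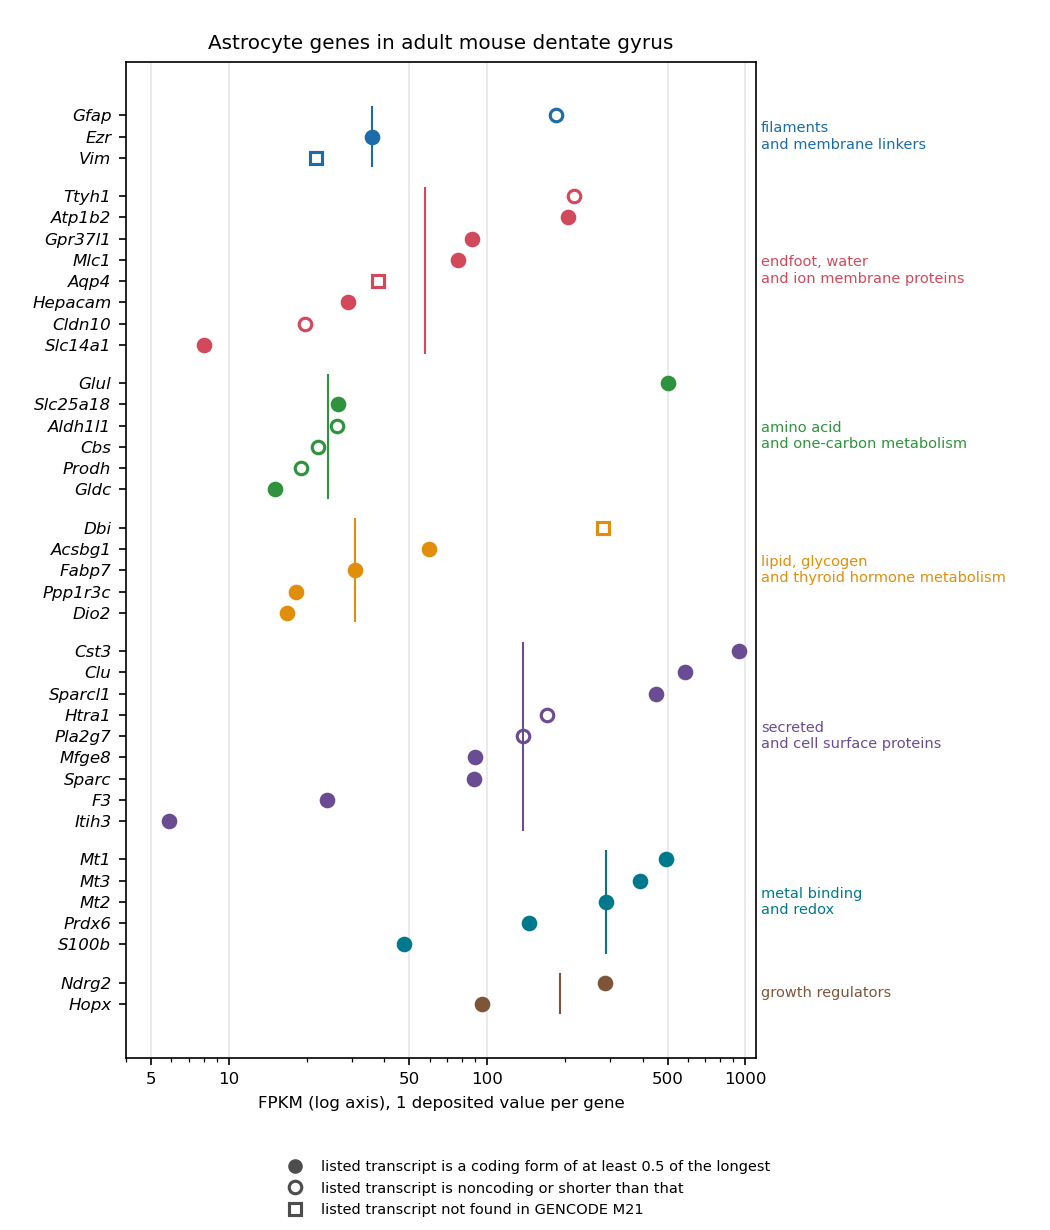
FPKM of the 38 astrocyte genes (horizontal log axis, 1 deposited value per gene), grouped by role, with a vertical line at each group's median and open symbols where the listed transcript is short, noncoding or not found. The metal-binding and redox group had the highest median, 289 FPKM, and the amino acid group the lowest, 24.3 FPKM, in spite of Glul at 502 FPKM.

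The metallothioneins, small cysteine-rich proteins that bind zinc and copper, supplied 3 of the 7 highest members. Mt1 stood at 492 FPKM, Mt3 at 391 FPKM and Mt2 at 289 FPKM. Mt1 and Mt2 are the widely expressed, metal-inducible forms and Mt3 is the brain-enriched form, also known from zinc-rich neurons. Mt1 exceeded Mt3 by 1.26-fold and Mt2 by 1.70-fold, ratios that have no replicate error and cannot be called differences. Mt4, the form of stratified epithelium, was listed at 0, and Mtf1, whose product switches on metallothionein genes in response to zinc, was at 6.05 FPKM. In mm9 coordinates these genes lay in a row on the plus strand of chromosome 8: Mt4 (chr8:96661104-96662931), Mt3 (chr8:96676507-96678048), Mt2 (chr8:96696518-96697467) and Mt1 (chr8:96702989-96704225). The 3 abundant genes fitted within 27719 bases, with 5521 bases between Mt2 and Mt1.

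The coding sequences are shown because such close relatives could share reads. They are those of the listed transcripts in GENCODE M21, with capitals at bases that differ from Mt1, and in Mt1 itself at bases that differ from Mt2.
Mt1: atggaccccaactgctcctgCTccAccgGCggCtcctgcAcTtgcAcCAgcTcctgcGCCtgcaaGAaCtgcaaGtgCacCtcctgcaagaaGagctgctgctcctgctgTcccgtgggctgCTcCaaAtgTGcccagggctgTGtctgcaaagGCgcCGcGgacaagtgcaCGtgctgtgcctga
Mt2: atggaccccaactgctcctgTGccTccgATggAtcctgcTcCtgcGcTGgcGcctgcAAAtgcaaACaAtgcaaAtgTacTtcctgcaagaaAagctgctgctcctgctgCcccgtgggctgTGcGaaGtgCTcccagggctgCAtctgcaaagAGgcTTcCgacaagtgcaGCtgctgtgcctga
Mt3: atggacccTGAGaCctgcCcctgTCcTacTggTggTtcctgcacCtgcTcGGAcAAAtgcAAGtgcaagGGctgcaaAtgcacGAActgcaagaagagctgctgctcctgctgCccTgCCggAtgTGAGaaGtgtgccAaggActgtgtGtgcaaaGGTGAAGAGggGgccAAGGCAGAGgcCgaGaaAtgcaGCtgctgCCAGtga
Mt1 and Mt2 were identical at 148 of 186 coding bases (79.6%), Mt1 and Mt3 at 137 of 186 aligned bases (73.7%), and Mt2 and Mt3 at 140 of 186 (75.3%). Mt3 has 21 coding bases more than the others. The longest stretch of identical bases was 20 between Mt1 and Mt2, 27 between Mt1 and Mt3 and 20 between Mt2 and Mt3, so differences are spread along the whole coding sequence.

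The other members of the metal and redox group were Prdx6 and S100b. Prdx6, a peroxiredoxin that also hydrolyses phospholipids, was at 146 FPKM, next to Prdx2 at 117 FPKM and below Prdx5 at 204 FPKM. Prdx5 has a retained-intron form as its listed transcript. The other peroxiredoxin genes ran from Prdx4 at 8.69 FPKM to Prdx1 at 39.7 FPKM. S100b, the calcium-binding protein long used as an astrocyte marker, was at 47.7 FPKM, under S100a1 at 68.2 FPKM and near S100a16 at 42.2 FPKM. Ager, the gene of the receptor for S100 proteins and glycated proteins, was at 0.0290 FPKM, and the granulocyte genes S100a8 and S100a9 were at 0.0318 and 0.0261 FPKM.

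Secreted and cell surface proteins formed the largest group, with 9 members and a median of 138 FPKM, which was 89.8 FPKM without Htra1 and Pla2g7, whose listed transcripts are noncoding or short. Cst3 (chr2:148697458-148701312, minus strand) encodes cystatin C, an inhibitor of cysteine proteases, and ranked 21 among protein-coding names. It exceeded each cathepsin gene examined: Ctsd, an aspartic protease that cystatin does not inhibit, was at 165 FPKM, and the cysteine proteases Ctsb, Ctsl, Ctss and Ctsh were at 69.2, 53.4, 39.4 and 5.28 FPKM. The listed transcripts of Ctsd, Ctsl and Ctsh are short forms. The intracellular inhibitor gene Cstb was at 24.4 FPKM and the leukocyte cystatin Cst7 at 0.177 FPKM. Cst3 and the cathepsin genes are also strongly transcribed in microglia, whose marker C1qb was at 38.9 FPKM, and which cells carried Cst3 was not tested.

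Clu, the gene of the lipid-carrying chaperone clusterin, was at 585 FPKM (chr14:66587320-66600385, plus strand). Its fellow brain apolipoprotein gene Apoe was 2.55 times as high at 1493 FPKM, while Apod was at 33.1 FPKM. The lipoprotein receptor gene Lrp1 stood at 33.3 FPKM.

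Sparcl1, whose product hevin promotes the formation of excitatory synapses, was at 453 FPKM. Sparc, whose product counteracts hevin, was at 89.0 FPKM, 5.09 times lower. Within the wider family the proteoglycan gene Spock2 lay between them at 126 FPKM, Smoc2 was at 34.0 FPKM and Smoc1 was lowest at 4.06 FPKM. Sparc is also transcribed in blood vessels and microglia.

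Htra1, a secreted serine protease, was at 170 FPKM, 8.94 times its mitochondrial relative Htra2 at 19.1 FPKM. Htra4 was at 3.76 FPKM and Htra3 at 0.367 FPKM. Pla2g7, the secreted enzyme that inactivates platelet-activating factor, was at 138 FPKM, above the intracellular subunit genes Pafah1b1 at 75.4 FPKM and Pafah1b2 at 49.7 FPKM. The listed transcripts of Htra1 and Pla2g7 were a retained-intron form and a short coding form of 740 nt. That of Pafah1b1 was also a retained-intron form.

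Mfge8, whose product bridges phosphatidylserine on dying cells to integrins of phagocytes, was at 89.8 FPKM. Of its receptor subunits, Itgb5 was at 16.6 FPKM, Itgav at 10.8 FPKM and Itgb3 at 0.476 FPKM. Its relative Edil3 was at 27.4 FPKM and the phagocytic receptor gene Mertk at 15.3 FPKM. F3, the gene of tissue factor, which starts blood coagulation, was at 24.0 FPKM. Its partner F7 and the zymogen genes F10 and F2 are made in liver. F7 was at 0.0218 FPKM, and F10 and F2 were listed at 0. The inhibitor gene Tfpi was at 0.236 FPKM, and Serpine2, the brain's thrombin inhibitor, was higher than F3 at 67.6 FPKM. Itih3 was the lowest member, yet the highest of the inter-alpha-trypsin inhibitor genes, with Itih5 at 3.80 FPKM, Itih4 at 0.0229 FPKM, and Itih1, Itih2 and the light chain gene Ambp listed at 0.

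Among membrane proteins of endfeet and processes, 7 of 8 members reached 10 FPKM and the median was 57.7 FPKM. Ttyh1, a tweety family membrane protein, was highest at 217 FPKM, 3.70 times Ttyh3 at 58.6 FPKM and above Ttyh2 at 2.84 FPKM. Its listed transcript is a noncoding form of 446 nt. Atp1b2, the glial beta subunit of the sodium pump, was at 205 FPKM. The beta subunit gene best known in neurons, Atp1b1, was higher at 448 FPKM and exceeded Atp1b2 by 2.19-fold. Atp1b3 was at 24.8 FPKM.

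Aqp4, the main water channel of endfeet, was at 37.9 FPKM and Aqp11, an intracellular water channel, at 18.8 FPKM. Aqp1, which marks choroid plexus, was at 0.273 FPKM, and the other 7 aquaporin genes examined were listed at 0. Genes of the complex that anchors Aqp4 to the endfoot membrane had values too: dystrobrevin Dtna at 46.6 FPKM, dystrophin Dmd at 12.1 FPKM, dystroglycan Dag1 at 25.1 FPKM, agrin Agrn at 23.3 FPKM and utrophin Utrn at 2.77 FPKM. Most of these are also transcribed in neurons.

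Mlc1 and Hepacam encode partners in a cell junction complex whose loss causes a leukodystrophy with brain swelling. Mlc1 was at 77.5 FPKM, 2.69 times Hepacam at 28.9 FPKM, and the chloride channel gene Clcn2, whose product joins the complex, was at 14.1 FPKM. The related Hepacam2 was at 0.0220 FPKM. Gpr37l1, a receptor reported to respond to prosaposin, was at 87.8 FPKM, 6.59 times its oligodendrocyte-enriched relative Gpr37 at 13.3 FPKM, and the prosaposin gene Psap was at 510 FPKM.

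Cldn10, a claudin, stood at 19.7 FPKM, between the oligodendrocyte claudin Cldn11 at 22.7 FPKM and Cldn12 at 13.6 FPKM, and above the endothelial claudin Cldn5 at 7.96 FPKM. Slc14a1, a urea transporter, was the second lowest member at 8.00 FPKM. Its close relative Slc14a2, of kidney, was at 0.0623 FPKM, a ratio of 128 that fell to 8.47 with 1 FPKM added to both values.

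The cytoskeletal group held Gfap, Vim and Ezr. Gfap, the defining intermediate filament of astrocytes, was at 186 FPKM (chr11:102755801-102762226, minus strand). This was 8.56 times Vim at 21.7 FPKM, the filament gene that astrocytes share with radial glia and endothelium, and 1.22 times the neuronal Nefl at 152 FPKM. Both ratios carry a limit, since the listed transcript of Gfap is a noncoding form of 356 nt where the longest coding form has 2648 nt. That of Vim was not found in GENCODE M21, and whether Gfap exceeded Nefl is uncertain. Synm and Nes, other partners of these filaments, were at 7.24 and 0.989 FPKM, and Nes too has a short listed form. Ezr, whose protein ezrin links fine astrocyte processes to actin, was at 35.9 FPKM, 1.97 times Rdx at 18.2 FPKM and 6.25 times Msn, the form of endothelium and leukocytes, at 5.74 FPKM. The related tumour suppressor gene Nf2 and the ezrin-binding scaffold gene Slc9a3r1 were close to Ezr at 34.9 and 27.4 FPKM.

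In amino acid and one-carbon metabolism 1 gene stood apart. Glul, which encodes glutamine synthetase, the enzyme that turns captured glutamate into glutamine, was at 502 FPKM (chr1:155747074-155756853, plus strand), and the other 5 members ran from 15.1 to 26.5 FPKM. Glul exceeded the glutamate transporter genes Slc1a2 at 267 FPKM and Slc1a3 at 192 FPKM. The glutamine carriers Slc38a3 and Slc38a5 of glia were at 15.1 and 6.70 FPKM, and Slc38a1 and Slc38a2, best known in neurons, were at 17.2 and 15.5 FPKM. The listed transcripts of Slc38a1 and Slc38a5 are short forms. The glutamate dehydrogenase gene Glud1 was at 3.24 FPKM.

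Glul had a close copy at a high level among annotated transcripts. In a search for other genes with at least 95% identity over at least 200 bases, 3 of the 38 members had a match. The matches of Aldh1l1 and Mt2 were antisense genes, 100% identical on the opposite strand over 332 and 212 bases. The match of Aldh1l1 was listed at 0, and that of Mt2 has no value in the table used here, so its level is unknown. Only 1 match reached 1 FPKM. This was Glns-ps1, a processed pseudogene on chromosome 11 (chr11:19620358-19621475, plus strand), 96.8% identical to Glul over 1126 aligned positions and listed at 143 FPKM. Its value was 28.5% of that of Glul. The longest stretch without a mismatch was 143 bases. The sequences below are 150 bases of the coding part of Glul, from its coding base 280, and the matching part of the pseudogene. They are the first stretch of that length in the coding part without a gap, so the 12 gap bases of the whole alignment are not shown. Capitals mark the bases that differ.
Glul: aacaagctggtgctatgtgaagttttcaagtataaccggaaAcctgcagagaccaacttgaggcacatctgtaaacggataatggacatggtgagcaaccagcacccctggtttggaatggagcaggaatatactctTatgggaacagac
Glns-ps1: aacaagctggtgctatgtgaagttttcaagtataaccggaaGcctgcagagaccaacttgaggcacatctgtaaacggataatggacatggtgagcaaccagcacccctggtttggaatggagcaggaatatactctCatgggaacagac
No source used here says how reads that fit both places were divided, so the levels of Glul and of the pseudogene are both uncertain. Whether the reads counted at the pseudogene arose there was not tested.

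Slc25a18, a mitochondrial glutamate carrier, was at 26.5 FPKM, and its relative Slc25a22 was 3.48 times as high at 92.2 FPKM. The aspartate-glutamate carrier gene Slc25a12 was at 49.3 FPKM and Slc25a13 was listed at 0. Aldh1l1, the cytosolic folate enzyme used to label astrocytes throughout the brain, was at 26.3 FPKM, the highest of 10 folate genes. Next came Mthfd1 at 14.3 FPKM and Shmt2 at 9.47 FPKM, and the mitochondrial relative Aldh1l2 was at 1.06 FPKM. The listed transcript of Aldh1l1 is a noncoding form of 400 nt, where the longest coding form has 4175 nt, so its place as the highest of these genes is uncertain.

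Gldc, the decarboxylase of the glycine cleavage system, was at 15.1 FPKM. The other subunit genes Amt and Gcsh were close to it at 15.7 and 19.2 FPKM, and Dld, which also serves pyruvate dehydrogenase, was 3.35 times as high at 50.5 FPKM. The listed transcript of Amt is a noncoding form, so its closeness to Gldc carries a limit. Cbs, which makes cystathionine from homocysteine, was at 22.2 FPKM, 6.54 times Cth, the next enzyme of the pathway, at 3.40 FPKM. In the methionine cycle that feeds Cbs, Mat2a was at 43.9 FPKM, Ahcy at 5.68 FPKM and Mtr at 2.48 FPKM. Prodh, which starts the breakdown of proline, was at 19.1 FPKM and Aldh4a1, the next step, at 10.7 FPKM. On the side of synthesis Aldh18a1 at 6.20 FPKM and Pycr1 at 1.40 FPKM, and Prodh2, of liver and kidney, was listed at 0. The span of Prodh overlaps the gene Dgcr6 on the opposite strand by 11004 bases. Dgcr6 stood at 34.6 FPKM, and since no step that marks the strand is described, reads of the overlapping parts cannot be told apart.

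Of the members in lipid, glycogen and hormone metabolism, Dbi stood above the others at 280 FPKM. Its product carries acyl-CoA and is the source of peptides that act on GABA-A receptors. Dbi was 10.4 times the next gene with an acyl-CoA binding domain, Acbd6 at 26.9 FPKM. That ratio carries a limit, since the listed transcript of Dbi was not found and that of Acbd6 is a short form of 993 nt. Acsbg1, an acyl-CoA synthetase for long-chain fatty acids, was at 59.4 FPKM, beside Acsl3 at 63.4 FPKM and Acsl6 at 54.6 FPKM. Acsbg2, of testis, was listed at 0. Fabp7, the brain fatty acid binding protein of radial glia and astrocytes, was at 30.8 FPKM, under Fabp5 at 45.2 FPKM and above Fabp3 at 6.91 FPKM. Fabp4, of fat cells, was at 0.0227 FPKM, and Fabp1, Fabp2 and Fabp6 were listed at 0.

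Ppp1r3c directs a phosphatase to glycogen and promotes glycogen synthesis, and at 18.3 FPKM it was the highest of the 7 glycogen-targeting subunit genes. Ppp1r3e followed at 4.69 FPKM and Ppp1r3g at 4.37 FPKM, and Ppp1r3a and Ppp1r3f were listed at 0. The brain glycogen synthase gene Gys1 was at 5.04 FPKM and the liver form Gys2 at 0.0469 FPKM. Among phosphorylases, which break glycogen down, the brain form Pygb was at 87.8 FPKM, the muscle form Pygm, also found in astrocytes, at 7.92 FPKM and the liver form Pygl at 1.14 FPKM.

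Dio2, the deiodinase by which astrocytes produce active thyroid hormone, was at 16.8 FPKM. It was 7.58 times Dio3, the inactivating enzyme of neurons, at 2.21 FPKM, and Dio1, of liver and kidney, was listed at 0. The thyroid hormone transporter gene Slco1c1 was near Dio2 at 14.5 FPKM. The receptor genes differed widely, with Thra at 451 FPKM and Thrb at 4.97 FPKM. That gap carries a limit, since the listed transcript of Thra is a noncoding form of 378 nt and that of Thrb a short form of 1758 nt. The listed transcript of Slco1c1 is not classed as coding either.

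The remaining members, Ndrg2 and Hopx, are known as regulators of growth and differentiation. Ndrg2, an astrocyte-enriched gene of the NDRG family, was at 287 FPKM, 1.39 times Ndrg3 at 206 FPKM. The mainly neuronal Ndrg4 was higher at 630 FPKM, with a short listed form, and Ndrg1 of oligodendrocytes was at 8.45 FPKM. Hopx, a homeodomain-only protein that marks quiescent stem cells of the dentate gyrus and many astrocytes, was at 95.9 FPKM. Genes of radial glia and progenitors were lower, with a median of 0.989 FPKM over 11 genes. Sox2 and Pax6, transcription factors that astrocytes also carry, led them at 14.1 and 4.27 FPKM. Those tied to neurogenesis and division were lower still, with Eomes at 0.655 FPKM, the proliferation gene Mki67 at 0.296 FPKM and the newborn neuron gene Dcx lowest at 0.0557 FPKM.

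**Figure D2:**
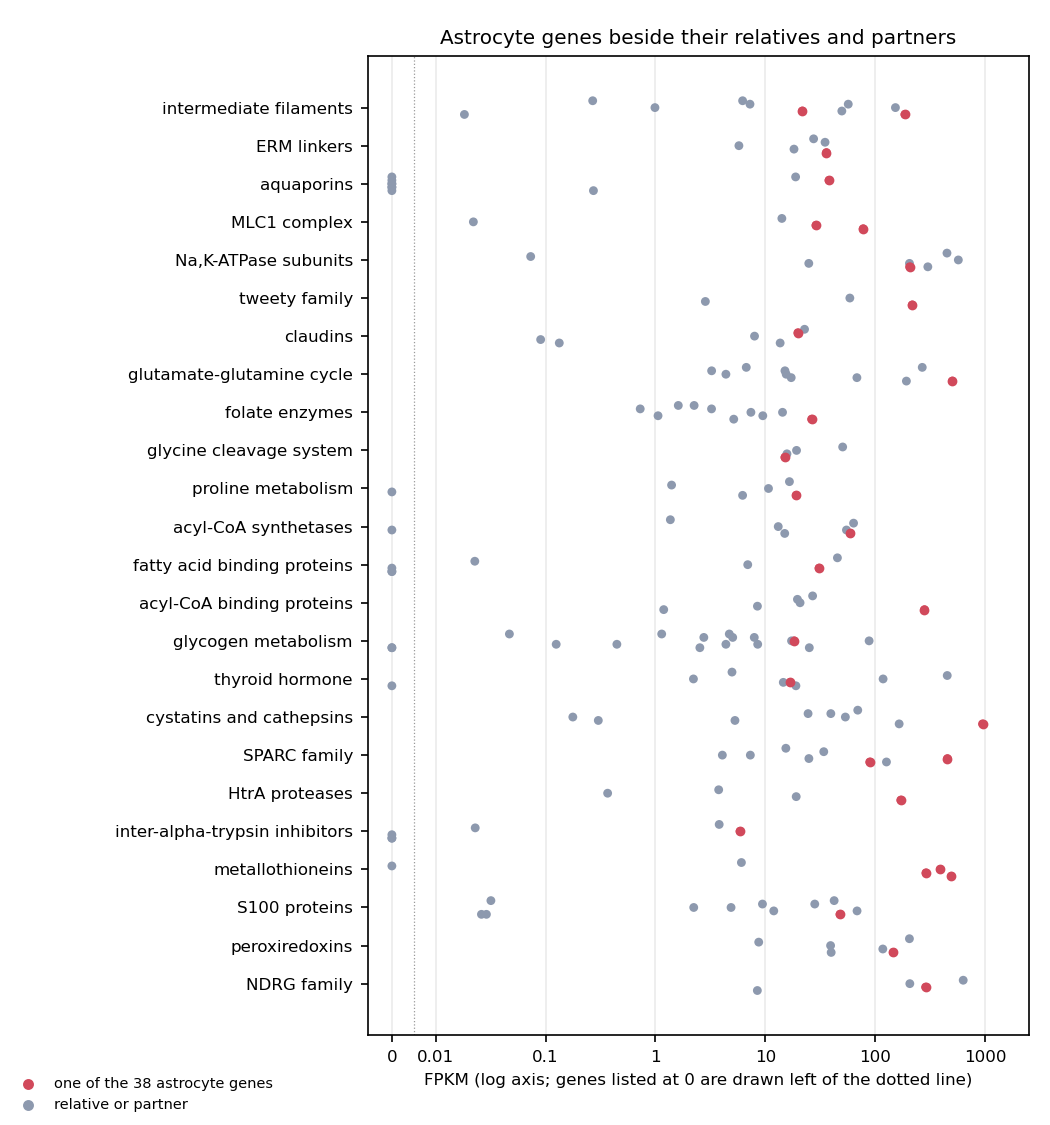
FPKM of genes in lists of relatives and partners (horizontal log axis, genes listed at 0 at the left edge), with the astrocyte genes in red and all others in grey. A red point stands furthest right among tweety, HtrA, metallothionein and folate genes, and neuronal or shared relatives lie to the right of it among sodium pump subunits, NDRG genes and peroxiredoxins.

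Of all 33 lists of relatives and partners, 17 had a member of the astrocyte genes as their highest gene. The lists were drawn up by family or pathway, not by level, but with the astrocyte genes known to be abundant.

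Set beside lists of markers of other cells, the astrocyte genes stood among the high ones. On a log2 scale with 0.1 FPKM added, their median lay 0.59 above that of the 11 astrocyte transporter and connexin genes, led by Slc1a2 at 267 FPKM with Slc7a11 lowest at 3.16 FPKM. It lay 1.45 above 13 further astrocyte genes, which ran from Apoe at 1493 FPKM and Aldoc at 511 FPKM to Sox9 at 0.925 FPKM. The neuron list, led by Camk2a at 1205 FPKM and Nrgn at 617 FPKM, was higher, a difference of -1.16. Its lowest gene Tubb3, which neurons commonly transcribe, was at 0.158 FPKM, so a single low value in this table has to be read with care. The astrocyte genes lay 0.90 above 10 dentate granule cell genes, whose lowest was Rasgrp1 at 22.3 FPKM. They lay 1.85 above microglial genes, whose lowest was Aif1 at 3.51 FPKM, and 2.20 above oligodendrocyte genes, which ran from Opalin at 1.18 FPKM to Mbp at 261 FPKM. Genes of oligodendrocyte precursors, led by Olig1 at 33.1 FPKM and Pdgfra at 10.1 FPKM with Neu4 lowest at 0.392 FPKM, were 3.61 below the astrocyte genes. Endothelial and pericyte genes and meningeal fibroblast genes were lower by 4.87 and 4.85, and radial glia and progenitor genes by 6.25, or 5.39 with a pseudocount of 1 FPKM. In bulk tissue, fewer cells of a type and less RNA per cell cannot be told apart, and such gaps depend on which genes a list holds, so they do not measure shares of cells.

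**Figure D3:**
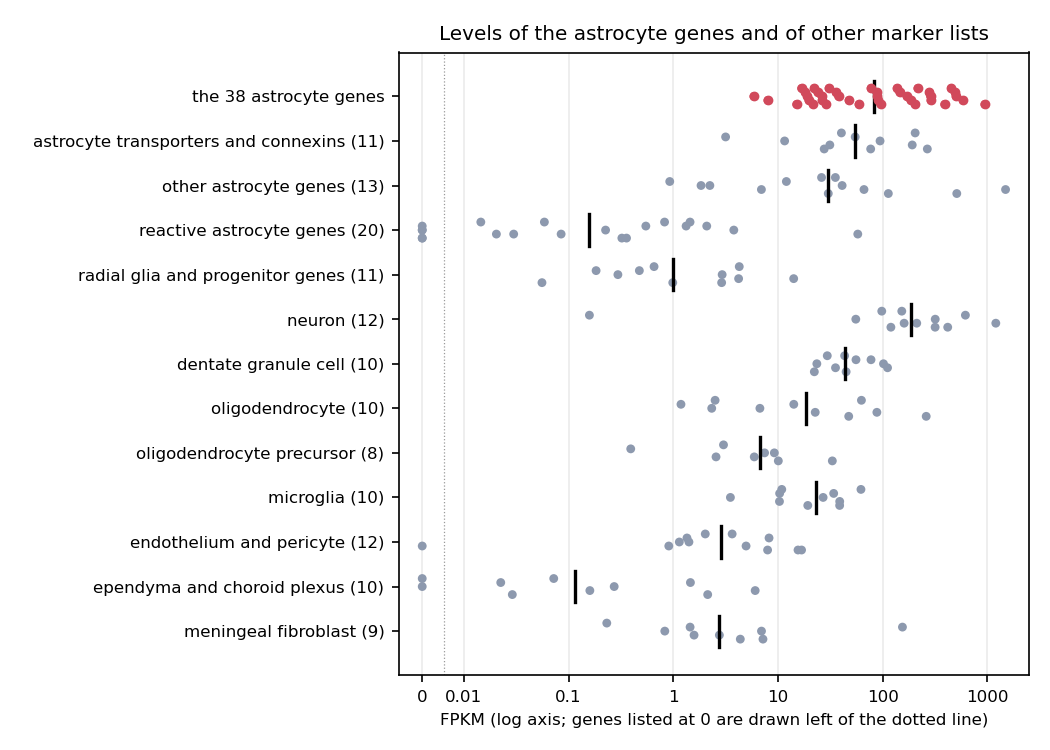
FPKM of the 38 astrocyte genes (red) and of genes in 12 marker lists (grey, number of genes in brackets) on a log axis, with a black line at each median and genes listed at 0 at the left edge. The astrocyte genes, with a median of 82.7 FPKM, are passed by the neuron list alone, at 186 FPKM, and reactive and ependymal genes lie furthest left.

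A list of genes that astrocytes raise after injury or inflammation had a lower median than the astrocyte genes themselves. No member was placed in that list, so the contrast depends in part on how genes were assigned. Of the 20 genes in the reactive list 5 reached 1 FPKM, a level that 39.6% of all gene names and 56.4% of protein-coding names reached. Their median was 0.155 FPKM, above the 0.0869 FPKM of all names and below the 2.46 FPKM of protein-coding names, and Lcn2, Steap4, Cd44, Gbp2 and Tgm1 were listed at 0. The exception was Serpina3n, a secreted protease inhibitor, at 57.9 FPKM, followed by the complement inhibitor gene Serping1 at 3.79 FPKM. C3, the complement gene often used as a sign of inflammatory astrocytes, was at 0.0849 FPKM. The astrocyte genes lay 8.40 above the reactive list on the log2 scale, a gap that was 6.18 with a pseudocount of 1 FPKM and 9.11 with one of 0.01 FPKM.

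Several of the 38 genes are also transcribed outside astrocytes, and the levels of markers of those cells are given here. Ependymal cells and choroid plexus share Aqp4, Vim, S100b, Clu and Cst3 with astrocytes. Of 10 markers of these linings 3 reached 1 FPKM, a level reached by 39.6% of all gene names and 56.4% of protein-coding names. Their median was 0.116 FPKM, against 0.0869 FPKM over all names and 2.46 FPKM over protein-coding names. Folr1 and Prlr were listed at 0, Kl was highest at 6.06 FPKM and Ttr next at 2.13 FPKM. The astrocyte genes lay 8.61 above this list on the log2 scale, or 6.23 with a pseudocount of 1 FPKM. Blood vessels share Vim, Sparc, Mt1, Mt2 and Mfge8, and the median of their 12 markers was 2.84 FPKM. The pericyte gene Vtn was highest at 16.8 FPKM and the endothelial gene Ly6c1 next at 15.5 FPKM, while Pecam1 was listed at 0. Meningeal fibroblasts share Sparc, Vim and Cst3, and 9 markers had a median of 2.76 FPKM, with Ptgds, which oligodendrocytes transcribe too, at 155 FPKM, Igf2 at 7.19 FPKM and Col3a1 lowest at 0.232 FPKM. Oligodendrocytes share S100b and Glul, and the median of their 10 markers was 18.4 FPKM. The myelin gene Mbp was highest at 261 FPKM and Opalin lowest at 1.18 FPKM. The part of these cells in the astrocyte gene levels was not tested.

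FPKM divides by transcript length, and each row of the table names 1 transcript. Of the 38 members 35 had that transcript in GENCODE M21, and those of Aqp4, Dbi and Vim were not found. For 27 of the 35 it was a coding form of at least 0.5 of the longest. For 8 it was noncoding or shorter: Gfap, Ttyh1, Htra1, Pla2g7, Aldh1l1, Cbs, Cldn10 and Prodh. The median of the 27 was 87.8 FPKM and that of the 8 was 82.0 FPKM. Across the 35 genes, level and listed length had a Spearman correlation of -0.41, against -0.13 across 10416 protein-coding genes at 1 FPKM or more. These are descriptions across genes, which are not independent replicates, and length enters both measures. Listed transcripts of members at 100 FPKM or more had a median length of 1216 nt and those of members below it 2269 nt. Among the relatives and markers named above, the listed transcripts of Tfpi, Ppp1r3g, Vtn, Col3a1 and Prlr are also short or noncoding forms. Whether a row holds the sum over a gene's transcripts or the listed one alone was not stated in the labels or the header.

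**Figure D4:**
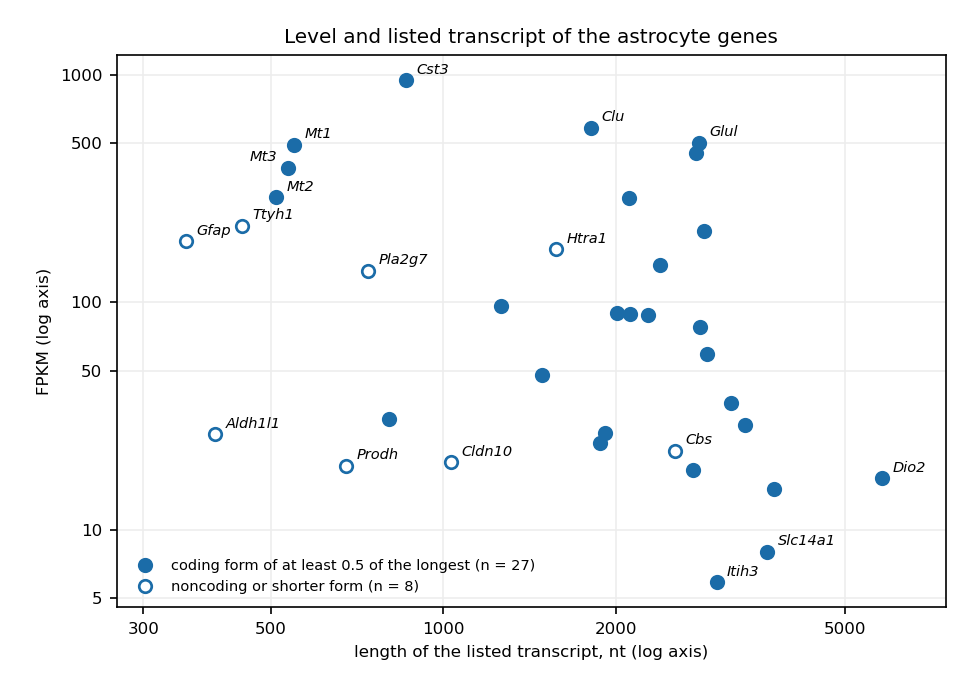
FPKM (vertical log axis) against the length of the listed transcript in nt (horizontal log axis) for the 35 astrocyte genes whose listed transcript was found, with open circles for the 8 noncoding or short forms. The short metallothionein transcripts sit at the upper left with Gfap and Ttyh1, and Dio2, with the longest at 5815 nt, at the lower right at 16.8 FPKM.

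The spans of 11 members were overlapped by 16 other rows with a value, 15 of them on the opposite strand. Of these rows 4 reached 1 FPKM. They were Dgcr6 at Prodh, the growth factor receptor gene Fgfr2 at Htra1 with 8.77 FPKM, A930039A15Rik at the end of Glul with 1.27 FPKM, and 9430041J12Rik at the start of Ttyh1 with 1.17 FPKM. Apart from Dgcr6, each had a level far below that of the member it overlapped. In mm9 coordinates the row of Fgfr2 spans 137305965 to 140315033 on chromosome 7 and so covers all of Htra1 (138079625 to 138123448). The members lay on 17 chromosomes.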

How the data were processed

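Dentate gyri of wild-type mice were sequenced as poly(A) RNA in 3 libraries, primed at random, per the labels' protocols. The authors deposited 1 table of FPKM values for the group, per the file headers. The tools named are TopHat and Cufflinks, and the builds NCBIM37 and mm9, per the submitters' processing notes. Neither their versions nor whether the libraries were pooled or averaged is stated there. A value of 0 may be a failed estimate, and such genes are described as listed at 0.

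Of 37681 rows, 1212 held no value and were left out. Rows with a shared symbol were summed. Starts were converted to 1-based positions. Gene types, transcript types, lengths and sequences came from GENCODE M21 by Ensembl identifier, since its coordinates are of another build. The members and all gene lists were chosen with earlier results of these data known. Of 346 listed genes 345 had a value, all but Tfap2c. Named were all 38 members, genes of their family lists, and the highest 2 and the lowest gene of each cell type list, except some genes that are not reported here. Named outside this rule after their values were seen were Glns-ps1, the overlapping genes, and Eomes, Mki67, Prlr, C3 and the reactive genes listed at 0 other than Lcn2. Ratios have no pseudocount, and list differences are on the log2(FPKM + 0.1) scale. Copies were searched with blastn 2.17.0. Functions were tested on simulated data. No p-value is given. The software was Python 3.11.15, numpy 2.4.6, pandas 2.3.3 and matplotlib 3.10.9.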

Additional observations from a re-analysis of the deposited data

How the results depend on the processing

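No paired analysis was possible because the table holds 1 value per gene for the 3 libraries, and for the same reason leaving out each replicate was not run. With no replicate spread, a value was taken to have moved when it changed by more than 1.5 times. No list difference turned its direction under any setting run. The settings run on ratios could not turn theirs, since the same amount was added to both values, and each member has 1 row, so taking the highest row for shared names could not move a member. Leaving out members with a short, noncoding or unmatched listed transcript lowered the median of the secreted group to 89.8 FPKM and moved no other group median. Adding 0.1 or 1 FPKM to both values moved the ratio of Slc14a1 to Slc14a2 from 128 to 49.9 or 8.47. The other 32 ratios to the highest relative of a list did not move, but 16 or 35 of 143 other ratios did. With a pseudocount of 1 FPKM the gaps to the reactive, progenitor and ependymal lists became 6.18, 5.39 and 6.23, and without genes under 0.1 FPKM 6.17, 5.51 and 5.73. With 0.01 FPKM the gaps to the reactive and ependymal lists became 9.11 and 9.45, and with list means 7.51 and 7.65. Against protein-coding names the background shares were 56.4%, 30.8% and 2.63%. Leaving out genes with doubtful transcripts from both lists, an alternative chosen after seeing the data, moved none of the 12 list differences. No value per library was analysed here, and the limit that depth sets on low values is unknown.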
